A study of Pleurotus ostreatus with 4 samples.

Results

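The sequences described here come from the oyster mushroom Pleurotus ostreatus and were more abundant in the mature fruit body than earlier. From mycelium to primordium and from primordium to young fruit body each changed by less than a set limit. Of 51131 sequences measured, 170 were of this kind. They were chosen from FPKM values (fragments scaled by sequence length and library size) on the scale log2(FPKM + 1). A sequence was taken where its FPKM in the mature fruit body was at least 5 and its log2 value there exceeded the highest of the 3 earlier stages by at least 1, a 2-fold difference on that scale. Its log2 values also had to differ by less than 1 from mycelium to primordium and from primordium to young fruit body. Mycelium and young fruit body were not limited against each other. The differences between stages therefore define these sequences and are given as a description, without a test.

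The RNA came from wild-type strain P739, and each of the 4 stages was represented by 1 library, from vegetative mycelium, primordium, young fruit body or mature fruit body. There was no replicate library, and so no difference could be set against the spread between replicates. Depth was nearly even, with library denominators of 15048631 to 15691317 fragments recovered from the steps of the FPKM values. Intervals are 95% intervals and cover counting error only. The identifiers name contigs within numbered clusters or single unigenes, none matched a table of 11849 RefSeq genes, and the function of no sequence is stated.

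In agaric mushrooms a primordium forms from compacted mycelium and grows into a fruit body with a cap and a stipe. In the mature fruit body the cap expands and the gills bear basidia, the cells in which nuclei fuse, meiosis takes place and spores form. A mature fruit body thus contains cell types that vegetative mycelium lacks. In RNA from whole tissue, more cells of a type and more RNA per cell cannot be told apart.

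As a group, the 170 sequences went from a minor to a somewhat larger fraction of the transcriptome at the last stage. Their median was 1.18 FPKM in mycelium, 1.39 FPKM in primordium, 1.97 FPKM in the young and 11.7 FPKM in the mature fruit body. Their FPKM summed to 659 in mycelium, to 715 in primordium and to 912 in the young fruit body. The sum was 4458 FPKM in the mature fruit body, 4.89-fold that of the young fruit body. Mycelium and primordium differed little in this sum, the young fruit body was somewhat higher and the mature fruit body stood far above all of them. Total FPKM was not the same in each library, at 595666 in mycelium and 531062 in primordium. As a share of that total, the group held 0.111%, 0.135%, 0.171% and 0.830% in the order of development, higher at each stage.

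In recovered fragments the group took 0.169% of the mycelium library (Wilson interval 0.167% to 0.171%) and 0.171% of the primordium library (0.169% to 0.174%). It took 0.212% of the young fruit body library (0.209% to 0.214%) and 0.950% of the mature fruit body library (0.945% to 0.955%). The group nevertheless stayed modest in level. At maturity its median of 11.7 FPKM lay below the median of 19.4 FPKM over all 6612 sequences that reached 5 FPKM in the same library, and 45 of the 170 reached 20 FPKM and 10 reached 100 FPKM.

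The count of 170 has to be read against how often sequences were higher in the mature fruit body at all. From young to mature fruit body, 7055 sequences reached 5 FPKM in 1 library or both, 368 of them were 2-fold higher or more at maturity, 5.22%, and the 170 are part of these. Against the highest of all 3 earlier stages, 269 of the 6612 sequences with at least 5 FPKM in mature fruit body were at least 2-fold higher, 4.07%. Among the 4567 of these that were flat over the first 3 stages by the limits above, the 170 made up 3.72%. Nothing further is read from these shares, because the rule used the same contrasts.

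**Figure D1:**
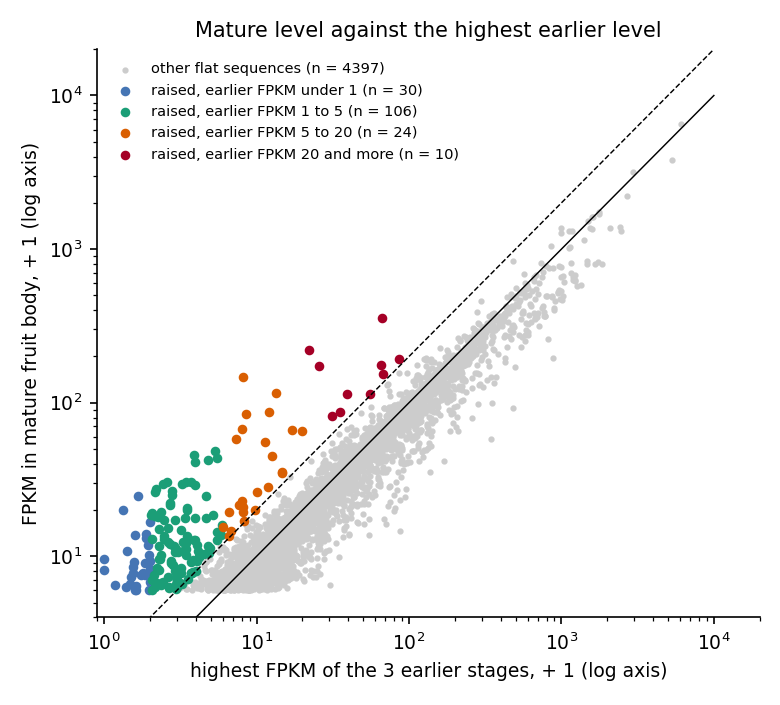
FPKM in the mature fruit body plotted against the highest FPKM of the 3 earlier stages, both with 1 added and on log axes, for the 170 sequences (coloured by their highest earlier FPKM) and for 4397 other sequences that were flat over the earlier stages and had at least 5 FPKM in the mature fruit body (grey). The solid line marks equal values and the dashed line the 2-fold difference of the rule, which all 170 meet. Most coloured points lie at the low left.

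The 170 sequences were not all silent before maturity. In 30 of them the highest earlier value was under 1 FPKM, in 106 it was 1 to 5 FPKM, in 24 it was 5 to 20 FPKM and in 10 it was 20 FPKM or more. The level at maturity and the ratio both went with the earlier level. The sequences under 1 FPKM before maturity had a median of 7.40 FPKM in mature fruit body, and those at 20 FPKM or more had a median of 163 FPKM. The median ratio of mature FPKM to the highest earlier FPKM ran the other way, at 12.3 in the first range, 4.87 in the second, 3.10 in the third and 2.70 in the last. The ratio is thus highest where the earlier level is lowest, which the rule partly sets, since a sequence under 1 FPKM earlier needs at least 5 FPKM to be taken.

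By the same ratio, 61 sequences lay under 4-fold, 109 at 4-fold or more, 63 at 8-fold or more and 14 at 16-fold or more, with a median of 5.45-fold. The median fold against single earlier stages was 10.9 for mycelium, 8.25 for primordium and 5.71 for young fruit body. The 10 sequences with earlier levels of 20 FPKM or more, although few, held 37.3% of the group's summed mature FPKM, and the 30 with earlier levels under 1 FPKM held 6.03%.

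**Figure D2:**
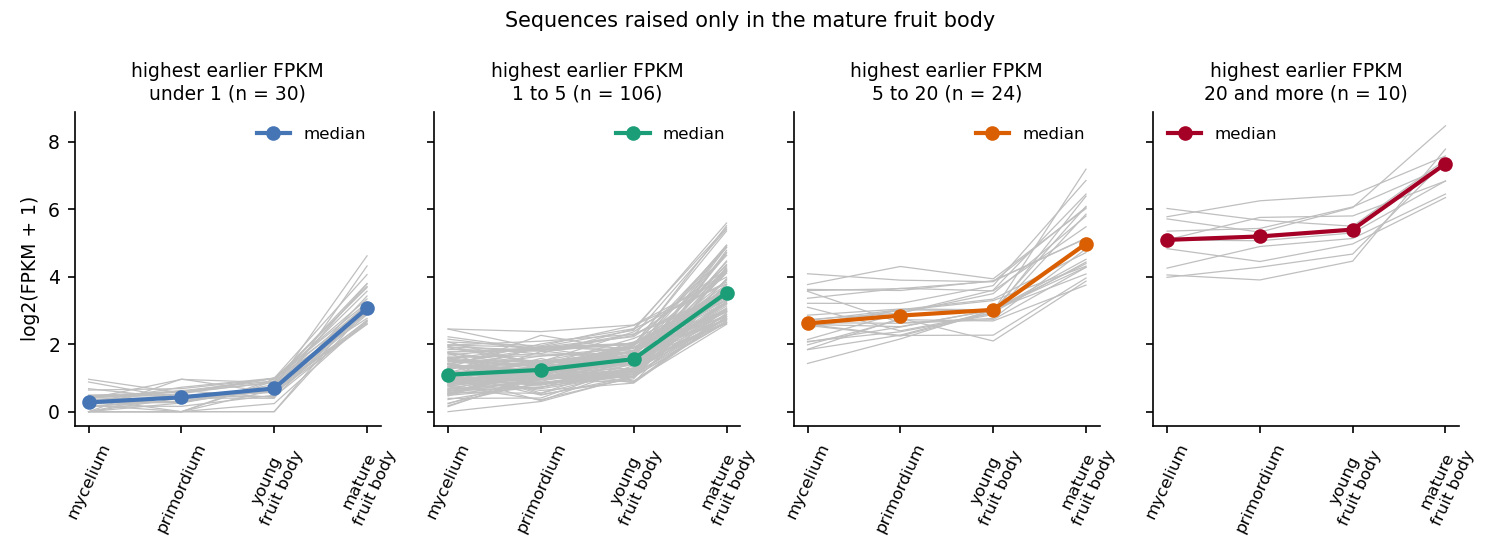
log2(FPKM + 1) of each of the 170 sequences (grey lines) at the 4 stages, in 4 panels by the highest earlier FPKM, with the median of each panel in colour. Medians of the panels rise at both early steps and more steeply to the mature fruit body. Over the first 3 stages they are 0.210, 0.343 and 0.612 FPKM in the lowest range. In the highest range they are 33.2, 35.8 and 41.3 FPKM.

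The most abundant member was Unigene4615 (3228 nt). Its level was 51.5 FPKM in mycelium, 39.0 FPKM in primordium, 65.3 FPKM in the young and 355 FPKM in the mature fruit body. The mature value was 5.44-fold the highest earlier one, with a counting interval of 5.24 to 5.65, and the sequence moved from rank 1649 by FPKM in young fruit body to rank 261 in mature fruit body. It alone made up 7.96% of the group's mature FPKM. Unigene6406 (1055 nt) followed with 15.6, 14.0, 21.0 and 219.6 FPKM in the order of development. Its ratio of 10.4 (9.33 to 11.7) took it from rank 3128 to rank 455.

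Unigene3251 (1053 nt) showed the largest log2 difference of all members, 4.17 on the log2(FPKM + 1) scale. It stood at 5.50 FPKM in mycelium, 7.13 FPKM in primordium, 6.91 FPKM in the young and 145 FPKM in the mature fruit body. The 3 earlier libraries held 90, 113 and 112 fragments of it and the mature library 2397, a ratio of 20.3 (16.8 to 24.8). It was level through the early stages and moved from rank 5484 in young fruit body to rank 749 in mature fruit body. CL5347.Contig1 (1899 nt) had 14.8, 18.5, 24.5 and 172 FPKM, 7.02-fold (6.50 to 7.61), and CL6109.Contig1 (1742 nt) had 8.27, 8.24, 12.3 and 115 FPKM, 9.31-fold (8.31 to 10.5).

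The other 5 of the 10 most abundant members lay between 2.07-fold and 2.97-fold. Unigene6504 (697 nt) had 53.9, 75.2, 85.1 and 191 FPKM, and Unigene7077 (3122 nt) had 39.9, 42.2, 66.2 and 153 FPKM. Unigene1074 (6032 nt) had 33.1, 32.5, 38.4 and 114 FPKM, with a narrow interval of 2.86 to 3.08 around its ratio of 2.97. CL3917.Contig1 (515 nt) had 33.2, 53.2, 54.8 and 113 FPKM, and its interval of 1.84 to 2.32 reached below 2. Unigene2410 (5013 nt) differed from these in having its highest earlier value in mycelium, at 64.1 FPKM, against 50.2, 44.2 and 176 FPKM in the later stages. Together the 10 most abundant members made up 39.3% of the group's mature FPKM, and 17 members made up 50% of it or more.

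**Figure D3:**
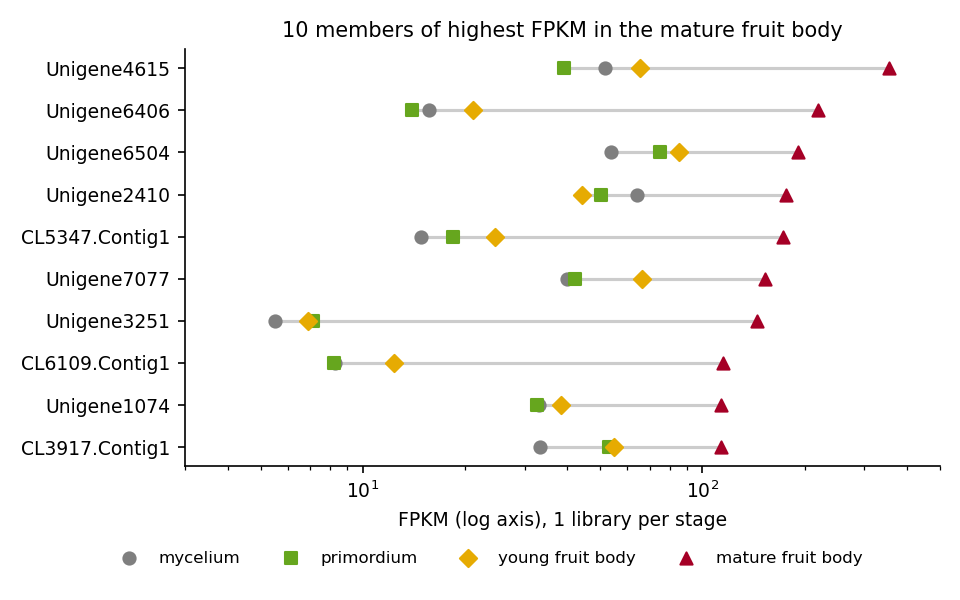
FPKM on a log axis of the 10 members with the highest FPKM in the mature fruit body, 1 point for each of the 4 libraries, joined by a grey line. The mature point lies alone to the right in every row, farthest from the others in Unigene3251 (145 against at most 7.13 FPKM).

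Among members near silence before maturity, Unigene8409 (678 nt) was not found in mycelium (0 fragments, an upper limit of 3) and had 0.196, 0.670 and 23.6 FPKM in the later stages. Its ratio was 35.2, with an interval of 16.8 to 88.4 that reflects 7 fragments in young fruit body. CL2644.Contig3, a short contig of 205 nt, had 0, 1 and 1 fragments in the earlier libraries and 61 in the mature library. Its ratio of 58.5, the highest among members with an earlier fragment, has an interval of 10.1 to 2348. Unigene288 (1969 nt) had 0.948, 0.472, 0.989 and 15.7 FPKM, 15.9-fold (11.0 to 23.8).

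In 2 members, named here after their values were seen, no fragment was found in any earlier library. CL4978.Contig3 (282 nt) had 38 fragments and 8.59 FPKM in mature fruit body, at least 12.1-fold higher than the floor of 3 fragments per library. Unigene11022 (346 nt) had 39 fragments and 7.18 FPKM, at least 12.5-fold higher than the same floor. Length and fragments of these members rest on 1 value each and are the smallest solution, so the folds are lower bounds, and absence cannot be separated from a low level in the earlier stages.

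Other members with large differences had about 1 to 3 FPKM in the young fruit body. Unigene5874 (487 nt) was level at 1.19, 0.955 and 1.07 FPKM and reached 26.6 FPKM, 22.3-fold (11.5 to 49.6). CL4828.Contig2 (1613 nt) had 0.598, 0.659, 1.17 and 25.1 FPKM, 21.5-fold (14.8 to 32.4), and CL3273.Contig2 (683 nt) had 0.283, 0.778, 1.43 and 28.4 FPKM, 19.9-fold (11.9 to 36.0). Unigene5433 (2501 nt) had 0.129, 1.04, 2.88 and 44.6 FPKM in the order of development. CL3174.Contig2 (2650 nt) likewise had a higher value at each stage, at 0.801, 1.43, 2.96 and 39.9 FPKM. These last sequences meet the rule only because adding 1 to FPKM compresses differences at low values.

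The 3 earlier values were higher in CL5862.Contig1 (1051 nt), with 2.20, 2.78, 4.32 and 47.2 FPKM, and in CL337.Contig1 (1255 nt), with 1.64, 3.02, 4.50 and 42.8 FPKM. Unigene6480 (775 nt) had 3.40, 6.60, 11.1 and 86.5 FPKM, 7.76-fold over young fruit body (6.48 to 9.37). All 3 had their earlier maximum in young fruit body.

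The stages before maturity were flat by rule but not without order. Young fruit body held the highest earlier value in 127 of the 170 sequences, mycelium in 22 and primordium in 19, and 2 were at 0 in all of them. That is 74.7% with the maximum in young fruit body, against 41.0% of 4397 other sequences that were flat over the early stages and had at least 5 FPKM in mature fruit body. Where the highest earlier value was 1 to 5 FPKM, these shares were 77.4% and 58.7%. They were 58.3% and 42.9% at 5 to 20 FPKM, and 90.0% and 38.3% at 20 FPKM or more. The value in young fruit body exceeded that in primordium in 144 sequences and was lower in 24, a share of 84.7% higher, with a median log2 difference of 0.30. Among the other flat sequences, 55.9% were higher in young fruit body and the median difference was 0.03. The counting interval of the ratio of young fruit body to primordium lay wholly above 1 in 65 members (38.2%) and wholly below 1 in 4 (2.35%). In the other flat sequences it lay above 1 in 23.7% and below 1 in 18.9%. The share above 1 was higher in members in each range of earlier level with a comparison. The share below 1 was not lower in members at 1 to 5 FPKM, at 0.943% against 0 of the others. It was nearly equal at 5 to 20 FPKM, at 8.33% and 8.60%. At 20 FPKM or more it was 28.8% of the others, against 1 member. The pooled shares below 1 therefore mix unlike levels.

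The small step up from primordium to young fruit body appeared at every earlier level. It was seen in 76.7%, 89.6%, 70.8% and 90.0% of members from the lowest to the highest range. In the other flat sequences the share was 71.4% at 1 to 5 FPKM (126 sequences), 59.7% at 5 to 20 FPKM (1989) and 51.8% at 20 FPKM or more (2282). The rule makes every such sequence under 1 FPKM a member, so the lowest range has no comparison group. With 3 other scalings of the libraries the share in members was 81.8% to 84.7%, whereas that in the other flat sequences was 38.2% to 54.5%, so the direction of the latter depended on scaling. From mycelium to primordium, 60.0% of members and 59.9% of other flat sequences had the higher deposited FPKM in primordium. With the 3 other scalings these shares were 70.6% to 74.1% of members and 66.8% to 73.1% of the others, so both depended on scaling. The deposited FPKM was higher at each early stage than at the one before in 83 members (48.8%) and lower at each in 5 (2.94%), against 34.3% and 18.6% of the other flat sequences. The pooled shares mix unlike levels. Higher at each were 50.9% of members and 41.3% of others at 1 to 5 FPKM, and 37.5% and 34.9% at 5 to 20 FPKM. Lower at each were 1.89% and 4.76%, then 4.17% and 14.0%, in the same ranges. At 20 FPKM or more, 5 members were higher at each and 1 was lower, against 33.4% and 23.3% of the others. These shares rest on the same primordium and young fruit body libraries and were not tested.

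**Figure D4:**
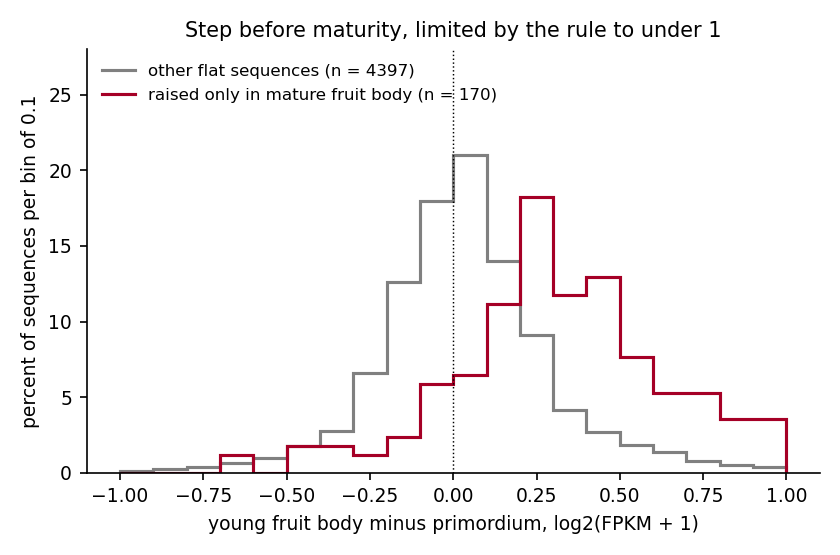
Distribution of the difference in log2(FPKM + 1) between young fruit body and primordium, in percent of sequences per bin of 0.1, for the 170 members (red) and 4397 other flat sequences (grey). The rule limits both to between -1 and 1, and within these limits the members lie to the right, with a median of 0.30 against 0.03.

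How firmly the early stages can be called level depends on depth. In 37 of the 170 members the counting intervals of both early ratios lay wholly within 2-fold of equality. These were 0 of the 30 members under 1 FPKM, 12 of 106 at 1 to 5 FPKM, 15 of 24 at 5 to 20 FPKM and all 10 at 20 FPKM or more. As plain ratios of FPKM, both early steps were under 2-fold in 109 members. Over all 3 earlier stages, the highest FPKM was under 2-fold the lowest in 88 members. For the last step, in which the rule chose large differences, the interval of the ratio of mature to highest earlier value lay wholly above 2 in 148 members.

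Among the 41 members whose earlier maximum was in mycelium or primordium, the most abundant were Unigene2410 and Unigene3251, given above, followed by CL1211.Contig2 (1184 nt). CL1211.Contig2 had 7.55, 4.27, 6.58 and 82.9 FPKM in the order of development, 11.0-fold the mycelial value (9.22 to 13.1). CL5844.Contig1 (1241 nt) declined slightly from 16.0 to 13.9 and 13.4 FPKM before reaching 65.9 FPKM, 4.11-fold (3.63 to 4.67). CL283.Contig8 (6342 nt) had its earlier maximum in primordium, at 12.6, 18.8, 14.3 and 64.1 FPKM, 3.42-fold (3.24 to 3.60).

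The profile shape of Unigene4615, the most abundant member, was compared with that of the other members over the 4 libraries by the Euclidean distance of centred log2(FPKM + 1) values. The nearest was CL219.Contig1, followed by CL2339.Contig2, CL3132.Contig2, CL2922.Contig1 and CL4828.Contig1, at distances of 0.0908 to 0.386. All of these were far less abundant, with 6.58 to 12.6 FPKM in mature fruit body. At such low levels adding 1 compresses differences. As plain FPKM, their ratios of mature to highest earlier value were 6.91 to 14.5, against 5.44 for Unigene4615. CL219.Contig1 rested on 6, 0 and 11 fragments in mycelium, primordium and young fruit body. Shape over 4 libraries is a coarse measure and says nothing of function.

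Of the 170 members, 117 were contigs of 88 clusters and 53 were single unigenes. Contigs made up 68.8% of the members, against 55.0% of all sequences with at least 5 FPKM in mature fruit body. They were 59.1% of the 198 other sequences at least 2-fold higher in mature than in young fruit body. Over all 50567 sequences above 0 the share was 77.8%, higher than in the members. Contigs of 1 cluster resemble each other and may share fragments, so they are not separate observations. In 64 clusters 1 contig was a member, in 19 clusters 2 were and in 5 clusters 3 were.

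In CL549, which has 7 contigs, members were Contig3 (1228 nt), Contig5 (3670 nt) and Contig7 (3394 nt). Contig3 had 0.314, 0.325, 1.59 and 29.4 FPKM in the order of development. Contig7 had 0.531, 0.920, 2.24 and 28.4 FPKM, and Contig5 had 0.228, 0.652, 0.991 and 7.24 FPKM. The other 4 contigs stayed under 1 FPKM in every library, so members held 98.2% of the cluster's mature FPKM and 73.6% of that in young fruit body.

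CL3286 has 11 contigs, several of them of similar length. Contig6 (5109 nt) had 0.126, 0.247, 0.597 and 12.8 FPKM, 21.5-fold (16.0 to 29.4), and Contig11 (5158 nt) had 0.125, 0.116, 0.403 and 9.77 FPKM, 24.3-fold (17.0 to 35.7). The third member, Contig9 (687 nt), reached 7.42 FPKM from 1.23. Further contigs of this cluster were higher in mature fruit body at levels under the minimum, such as Contig10 (5161 nt), with 7 fragments in young and 86 in mature fruit body, 12.1-fold (5.61 to 30.9).

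In CL6004, with 23 contigs, the 3 members Contig2, Contig5 and Contig6 reached 9.63, 12.6 and 8.56 FPKM from 1.92, 2.50 and 1.32 FPKM in young fruit body. The other 20 contigs stayed under 4 FPKM throughout, and members held 34.9% of the cluster's FPKM in young and 74.3% in mature fruit body. All 5 contigs of CL5026 were at least 2-fold higher in mature fruit body than in any earlier stage, with mature values of 8.09 to 27.0 FPKM. Contig2, Contig3 and Contig4 were members, while Contig1 and Contig5 were not, because they differed between mycelium and primordium (1.53 and 6.11 FPKM, and 1.43 and 4.67 FPKM).

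In CL4633 all 3 contigs were members, at 0.807, 1.46, 0.814 and 12.0 FPKM in Contig1 (319 nt), 0.698, 1.05, 1.29 and 10.6 FPKM in Contig2 (2211 nt) and 0.730, 1.16, 1.93 and 16.3 FPKM in Contig3 (2116 nt). Their ratios to the highest earlier value, 8.22, 8.23 and 8.41, were close to each other but do not use the same stage. The highest earlier value was in primordium for Contig1 and in young fruit body for Contig2 and Contig3.

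The 88 clusters held 249 further contigs that were no members. Of these, 209 stayed under 5 FPKM in both young and mature fruit body. Among the 40 others, 18 were at least 2-fold higher in mature than in young fruit body, 45%, 22 lay within 2-fold and 0 were at least 2-fold lower. In clusters without a member, 99 of 3788 contigs that reached 5 FPKM in the young or mature fruit body were higher, 2.61%. The median log2 difference was 0.89 in the first group and -0.04 in the second. These contigs were not chosen by the rule, but they may share fragments with members, and how fragments were divided within a cluster was not given in the sources used here. The 2.61% leaves out every cluster with a member, which lowers it. Over all sequences compared between young and mature fruit body the share was 5.22%.

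Summing the contigs of each cluster changed the picture for part of them. For 69 of the 88 clusters the sum was at least 2-fold higher in mature fruit body than in the highest earlier stage, and for 59 the sum met the whole rule. For 19 the sum was under 2-fold higher, and for 5 of these it was lower than at an earlier stage. In CL3517 the member Contig2 (1909 nt) had 0.674, 1.32, 2.89 and 11.7 FPKM, while Contig5 (6117 nt) had 121, 150, 196 and 141 FPKM. The cluster's sum, at 204 FPKM in young and 163 in mature fruit body, followed Contig5.

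In CL1900 the member Contig4 (4224 nt) had 1.68, 2.69, 1.81 and 6.80 FPKM beside Contig3 (9294 nt) at 12.6, 11.1, 11.4 and 9.21 FPKM. In CL5610 the member Contig3 (810 nt) had 0.397, 0.656, 1.28 and 14.2 FPKM beside Contig1 (1861 nt) at 5.91, 5.68, 5.97 and 5.27 FPKM. CL6248, singled out after its values were seen, joined contigs of opposite profile. Its member Contig8 (2021 nt) had 0.382, 1.58, 3.50 and 9.40 FPKM, whereas Contig13 (1861 nt) had 23.1 FPKM in mycelium and 0.643, 1.19 and 0.890 FPKM in the later stages. The cluster's sum was highest in mycelium, at 48.3 FPKM against 17.7 in mature fruit body.

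**Figure D5:**
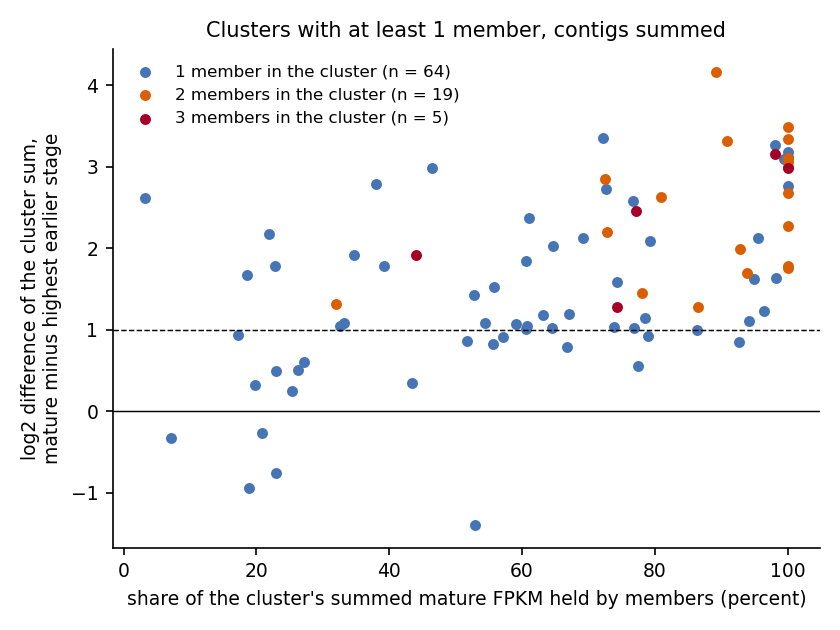
Difference in log2(FPKM + 1) of the cluster sum between mature fruit body and the highest earlier stage, plotted against the percentage of the cluster's mature FPKM held by members, for the 88 clusters with at least 1 member. The dashed line marks a difference of 1 and the solid line 0. The 19 clusters below the dashed line all have 1 member.

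Length was not used by the rule. The median recovered length was 1456 nt for members and 1704 nt for all 6612 sequences with at least 5 FPKM in mature fruit body. Members under 500 nt made up 14.7% against 10.5%, and those of at least 3000 nt 18.2% against 22.7%. The 198 other sequences at least 2-fold higher in mature than in young fruit body leaned the same way, at 12.1% and 16.7%. Over all 50567 sequences above 0 the shares were 13.6% and 24.4%. Members ranged from 200 to 7502 nt, and unigenes among them were shorter than contigs, with medians of 1005 and 1548 nt. No interval is given for these shares, because contigs of 1 cluster are not independent.

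The remaining 198 sequences that were at least 2-fold higher in mature than in young fruit body had differed earlier or were under 2-fold above an earlier stage. Of these, 90 had been at least 2-fold higher in primordium than in mycelium and 67 at least 2-fold lower, and 57 were at least 2-fold higher and 16 at least 2-fold lower in young fruit body than in primordium. A further 20 were flat in both early steps but under 2-fold above their highest earlier value. These groups overlap. Compared with the 170 members, the 198 had a higher median in mature fruit body, at 29.2 against 11.7 FPKM. Their median log2 difference from young fruit body was smaller, at 1.48 against 1.97. Their median length was 1370 nt. The level and the log2 difference are not read further, because the rule separated the groups by the same FPKM values. Its log2 scale compresses differences at low FPKM, which makes the early limits easier to meet there. Members also had to lie at least 2-fold above every earlier stage, which was not required of the 198.

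At the edges of the rule the values ran on without a gap. Just inside the 2-fold limit lay CL3473.Contig2 (2.98 FPKM in young and 6.97 in mature fruit body), CL1202.Contig1 (2.55 and 6.15) and CL4628.Contig1 (8.81 and 18.9), with log2 differences of 1.00, 1.01 and 1.02. Just outside it lay CL5598.Contig3 (2.16 and 5.26) at 0.99 and Unigene6417 and Unigene1528 at 0.98, of which Unigene6417 had its highest earlier value in mycelium. At the minimum of 5 FPKM, CL5097.Contig3, CL2339.Contig1 and CL2884.Contig2 lay just inside, at 5.03, 5.04 and 5.07 FPKM in mature fruit body. CL5777.Contig2, CL377.Contig2 and CL660.Contig21 met all other limits and lay just outside, at 4.85, 4.82 and 4.80 FPKM.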

How the data were processed

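RNA was extracted with Trizol from frozen material and sequenced on an Illumina HiSeq 2000 instrument, per the labels' protocols. The deposited values are FPKM for 51131 sequences, given to 4 decimals per the file headers. The assembly, the aligner, the counting tool and any filters were not given in the sources used here. Columns were assigned to stages by the short names in the labels' descriptions.

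Low FPKM values lie on steps of whole fragments. Library denominators, lengths (shortest whole-number solution of at least 200 nt) and fragment counts were recovered from these steps, and 100.0% of the 50567 sequences above 0 gave whole counts within the rounding error. A length or count with a common factor may be understated by it. This leaves ratios unchanged and makes their intervals too wide. The recovery and the rule were run on simulated data with counting noise only, in which the raised sequences had higher levels than most members. That run does not show how the rule performs at low levels or with spread between replicate libraries. Ratio intervals are exact binomial intervals on 2 counts, and shares have Wilson intervals, both at 95%. With 1 library per stage there is no test.

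The members, the comparison groups and the lists were chosen with earlier results of these data known. Named sequences followed a rule: highest mature FPKM, largest difference, top 3 per range of earlier FPKM, 4 clusters with most members (of 5 tied at 3, those with the highest summed mature FPKM; CL4633, the fifth, was added), edges of the limits, clusters with a contig lower at maturity, earlier maximum not in young fruit body, and nearest profile. Computations used Python 3.11.15, numpy 2.4.6, pandas 2.3.3, scipy 1.17.1, numba 0.67.0 and matplotlib 3.10.9. Alternatives covered the pseudocount, scaling, thresholds, the minimum, mycelium in the rule, counting intervals and cluster sums.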

Additional observations from a re-analysis of the deposited data

How the results depend on the processing

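The count of 170 stayed within 1.5 times under 8 of 12 alternatives, at 117 (early steps within 1.5-fold) to 172 (equal sums, mean total kept). Among these 8, the cluster sums count other units than sequences. There 130 units passed, made up of 53 unigenes and 77 clusters, of which 59 had a member and 18 had none. The count of sequences moved to 78 with a 4-fold rise, 45 with a minimum of 20 FPKM, 312 with no minimum and 264 without mycelium in the rule. The same 4 settings gave shares of mature FPKM of 0.468%, 0.593%, 0.909% and 3.14%, early steps within 1.5-fold gave 0.524% and recovered fragments 0.950%, against 0.830% as reported. The median fold of 5.45 became 4.55 and 8.39 with pseudocounts of 0.1 and 5, and 5.65, 5.77 and 5.34 with median-of-ratios, upper-quartile and equal-sum scaling, with members chosen anew each time. A pseudocount of 0.1 kept 118 of the 170 members, a pseudocount of 5 kept 106 and the 3 scalings kept 155 to 166. Contigs sharing a cluster with a member and higher in mature fruit body were 46 of 134 (34.3%) with a minimum of 1 FPKM, against 18 of 40, and in clusters without a member 2.14% of 11352 were. None of the 50 named members changed direction under the 5 pseudocounts and scalings, which is no sign of stability, since they were chosen for it. Depth limits the early stages: intervals of both early ratios were within 2-fold in 37 of 170 members. No paired analysis was possible because the stages have no repeated libraries.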
